A study of Mus musculus with 2 samples.

Results

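The genes described here are 34 transcripts that mark neutrophils: proteins stored in their granules, receptors on their surface, and a few enzymes and factors inside the cell. All 34 were chosen by name, without use of measured values in the rule, but with earlier results of these data known. All were found among the 34745 genes of the count table. They were measured by RNA-seq in ear skin of mice, in 1 library labelled KAT8-cKO (conditional knockout) and 1 library labelled WT (wild type). In both groups 30 mg of cream holding 5% imiquimod had been put on each ear daily for 3 days, with collection on day 4. Imiquimod activates TLR7 and gives mouse skin a psoriasis-like inflammation. KAT8, also named MOF, is a histone acetyltransferase. The sources used here do not state the promoter or cell type behind the conditional knockout, nor the strain, sex, age or number of animals of each library. No skin without imiquimod was analysed here. With 1 library per label there were no replicates, so the variation between animals is unknown, no p-value is given, and each value describes these libraries.

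Neutrophils are made in bone marrow, and their granules fill in a fixed order. Azurophil granule proteins (myeloperoxidase and the serine proteases) are transcribed first, in promyelocytes. Specific granule proteins such as lactoferrin follow in myelocytes, and gelatinase granule proteins and many surface receptors come last. Mature neutrophils that enter inflamed skin therefore carry the proteins of every granule but have largely stopped transcribing the early genes. In psoriasis-like skin they collect in the dermis and beneath the cornified layer.

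The libraries held 13727524 counts (labelled KAT8-cKO) and 12179608 counts (labelled WT). Levels are TMM-scaled CPM (counts scaled to a common library size), and 1 count was worth 0.0689 CPM (KAT8-cKO) and 0.0868 CPM (WT). Kat8 itself had 351 counts in the library labelled KAT8-cKO and 219 in the library labelled WT, so it was not lower under the knockout label, and the libraries are called cKO-labelled and WT-labelled below, or cKO and WT beside a value. They also differed in sex-linked RNA, with 6 (cKO) and 11891 (WT) counts of Xist, and 838 (cKO) and 0 (WT) counts of the Y-linked Eif2s3y. Sex and label cannot be told apart in any value that follows. Genes used as neutrophil markers were detected in both libraries. Ly6g had 135 (cKO) and 476 (WT) counts, Csf3r 1777 (cKO) and 4311 (WT), and Cxcr2 1120 (cKO) and 2977 (WT). S100a8 had 32364 (cKO) and 67326 (WT) counts, and S100a9 34419 (cKO) and 54599 (WT). Keratinocytes in inflamed skin also express S100a8, so the S100 counts alone do not show neutrophils. In whole skin, fewer neutrophils and less of an RNA per neutrophil cannot be told apart.

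Neutrophil genes were lower in the cKO-labelled library, with the azurophil genes and Cebpe near the limit of detection in both libraries. The 34 genes together had 30823 counts, or 2124 CPM, in the cKO-labelled library and 101713 counts, or 8829 CPM, in the WT-labelled library. The sum was 4.16-fold lower in the cKO-labelled library, with an exact 95% interval of 4.10 to 4.21 that covers counting error only. They took 0.225% of all counts in the cKO-labelled library (exact binomial 95% interval 0.222 to 0.227%) and 0.835% in the WT-labelled library (0.830 to 0.840%). Of the 34 genes, 30 reached 1 CPM in at least 1 library, and all 30 reached it in both. Mpo, Elane, Ctsg and Cebpe did not.

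The threshold for calling a gene lower or higher was a 2-fold difference on the (CPM + 1) scale, a log2 ratio of 1 or more in either direction. On this scale 24 of the 30 were lower and none higher, where 8.63% of all 15240 genes at 1 CPM or more were lower and 4.56% higher. The same shares are the background for the 2-fold counts by role and by list below, unless another setting is named. The median log2 ratio was -1.94 over the 30 genes and 0.01 over all 15240. At 4-fold, 13 of the 30 were lower, against 1.61% of all genes. With the limit for a measured gene raised to 5 CPM, 24 of 28 were lower, against 8.83% of 12682 genes. The 95% counting interval of the plain ratio lay below 1 for 29 of the 34 genes and included 1 for the other 5. Nearest to the threshold were Mmp25, called lower at a log2 ratio of -1.40, and Trem3, not called at -0.999.

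**Figure D1:**
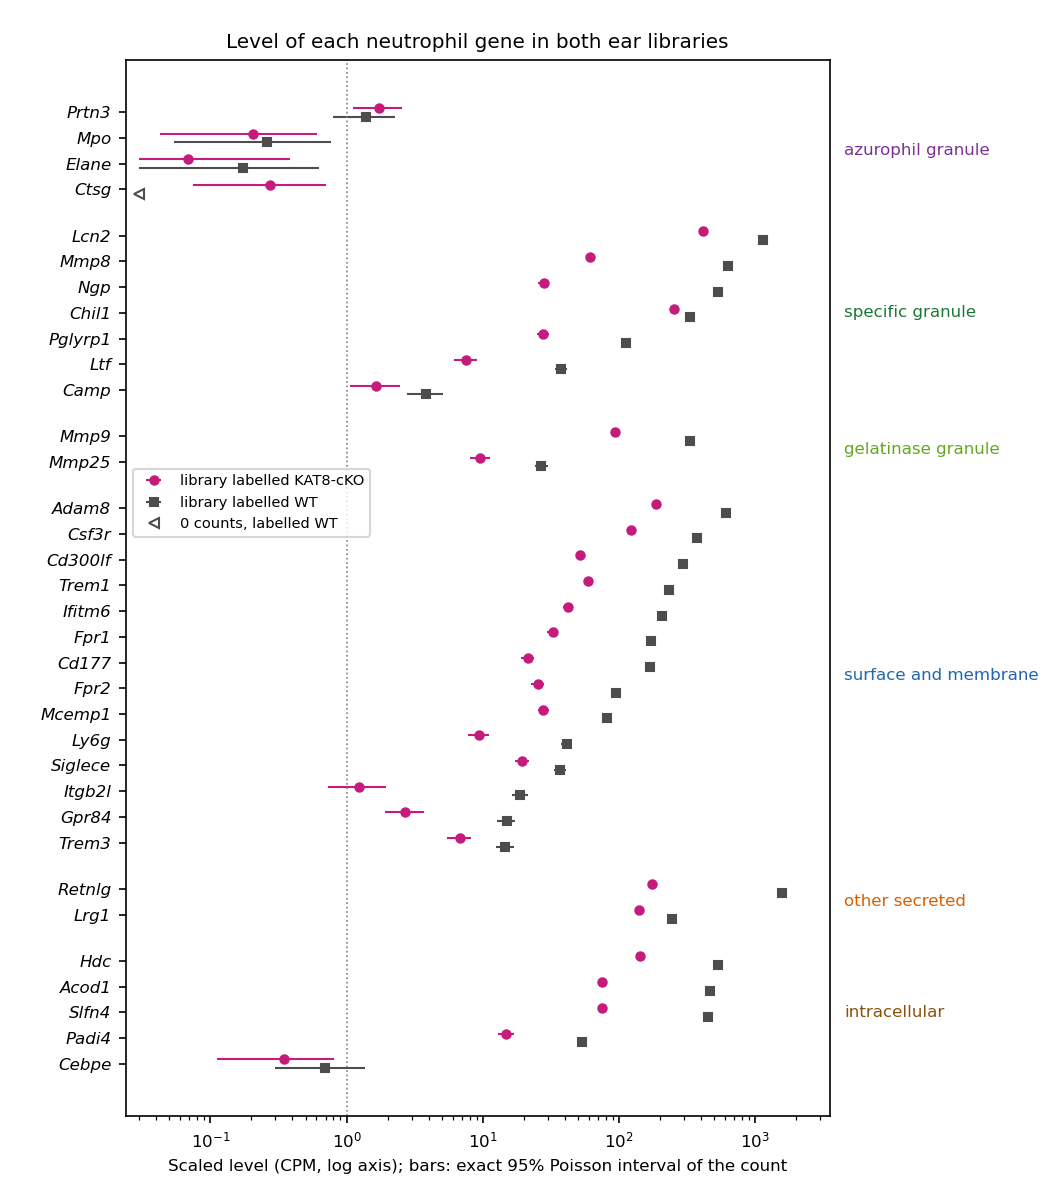
Level of each of the 34 genes in the cKO-labelled library (circles) and the WT-labelled library (squares), in CPM on a log axis, grouped by role, with exact 95% Poisson intervals of the count. The open triangle marks 0 counts, the dotted line marks 1 CPM, and bars that touch the left edge go on beyond it. The WT-labelled value lies to the right for all genes except Prtn3 and Ctsg.

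The azurophil granule genes, which encode the proteins of the earliest granule, were almost silent in both libraries. Mpo (myeloperoxidase, which makes hypochlorous acid) had 3 counts in each library. Elane (neutrophil elastase) had 1 count in the cKO-labelled library and 2 in the WT-labelled library, and Ctsg (cathepsin G) had 4 (cKO) and 0 (WT), where the limit of 3 counts for a gene at 0 is 0.260 CPM. Differences in these 3 genes were not detectable at this depth. Prtn3 (proteinase 3) had the highest level per kilobase of exon of the 4 in both libraries, with 25 counts (1.72 CPM) in the cKO-labelled library and 16 (1.39 CPM) in the WT-labelled library. Its ratio of 1.24 had a 95% interval of 0.637 to 2.49, which includes 1. Prtn3 and Elane lie 3.07 kb apart on chromosome 10 (GRCm38), and 9.18% of the exon length of Prtn3 overlaps the opposite-strand gene Plppr3, whose reads cannot be told apart without strand. Summed, the 4 genes had 33 counts in the cKO-labelled library and 21 in the WT-labelled library. Cebpe, the transcription factor needed for specific granule genes in mice, was as scarce, with 5 (cKO) and 8 (WT) counts.

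Specific granule genes were lower in the cKO-labelled library, and they differed widely among themselves. Their sum was 791 CPM in the cKO-labelled library and 2792 CPM in the WT-labelled library, 3.53-fold lower (interval 3.45 to 3.60), with 5 of 7 called lower and none higher and a median log2 ratio of -1.996. Ngp, which encodes neutrophilic granule protein, had 405 counts (27.9 CPM) in the cKO-labelled library and 6167 (535 CPM) in the WT-labelled library. Its 19.2-fold lower level (interval 17.3 to 21.3) was the 10th lowest log2 ratio among the 15240 genes. Mmp8 (neutrophil collagenase) had 883 (cKO) and 7295 (WT) counts and was 10.4-fold lower (interval 9.70 to 11.2). Ngp and Mmp8 stood apart from the other 5 specific granule genes, whose intervals all lay nearer to 1.

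Ltf (lactoferrin, an iron-binding protein) had 109 counts in the cKO-labelled library and 432 in the WT-labelled library, 4.99-fold lower (interval 4.04 to 6.22). Pglyrp1, a peptidoglycan-binding protein, had 399 (cKO) and 1298 (WT) counts and was 4.10-fold lower (interval 3.66 to 4.60). The intervals of Ltf and Pglyrp1 overlap. Lcn2 (lipocalin 2, which binds bacterial siderophores and is also made by keratinocytes) had 6007 (cKO) and 13089 (WT) counts, 414 (cKO) and 1136 (WT) CPM, and was 2.74-fold lower (interval 2.66 to 2.83). Camp, the cathelicidin gene, was scarce at 24 (cKO) and 44 (WT) counts, 2.31-fold lower with a wide interval of 1.37 to 3.97, and was not called at a log2 ratio of -0.86. Chil1 (a chitinase-like protein that macrophages also make) had 3659 (cKO) and 3838 (WT) counts and was 1.32-fold lower (interval 1.26 to 1.38), the smallest difference of the 7.

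The makeup of the specific granule transcripts differed accordingly. Ngp and Mmp8 together made up 11.2% of the 11486 specific granule counts in the cKO-labelled library (exact interval 10.6 to 11.8%) and 41.9% of the 32163 counts in the WT-labelled library (41.3 to 42.4%). Lcn2 and Chil1 made up 84.2% in the cKO-labelled library (83.5 to 84.8%) and 52.6% in the WT-labelled library (52.1 to 53.2%). Both of these genes are also expressed by cells other than neutrophils, and the source of their reads was not tested.

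**Figure D2:**
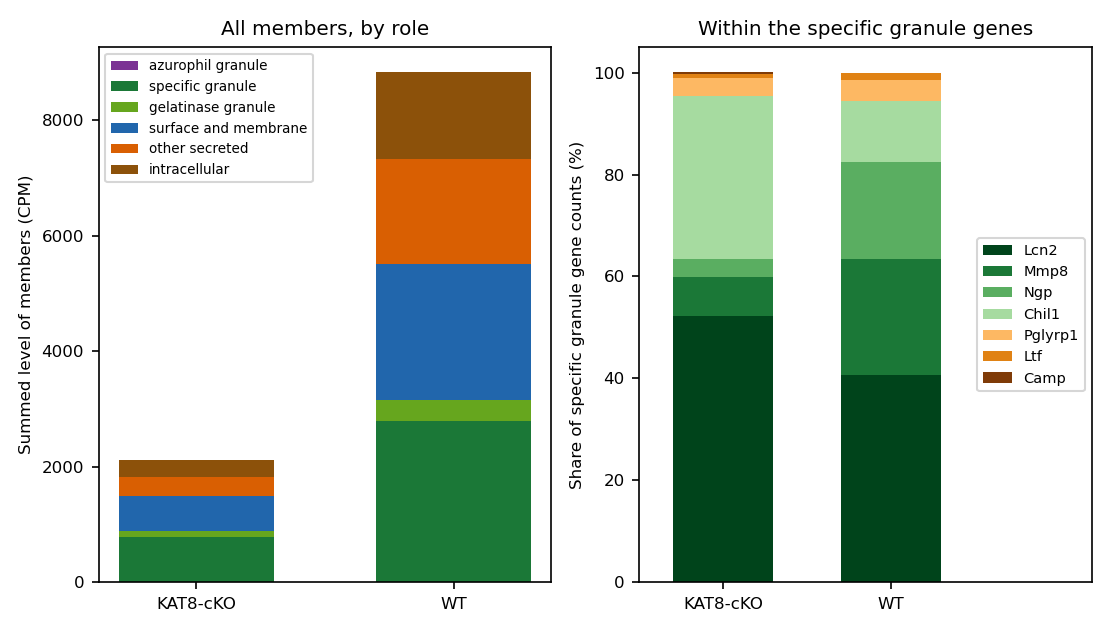
Left, summed level of the 34 genes in CPM, stacked by role, for the cKO-labelled library (left bar) and the WT-labelled library (right bar), at 2124 (cKO) and 8829 (WT) CPM in all. Right, the share of each of the 7 genes in the specific granule counts of each library, in percent. Ngp and Mmp8 hold 11.2% in the cKO-labelled library and 41.9% in the WT-labelled library.

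Because specific granule genes are known to be switched on by C/EBP factors, and myeloid genes by PU.1, the bases upstream of the start were searched for the letters TTGCNNAA (C/EBP) and GAGGAA (PU.1), on both strands. The promoters are from RefSeq on GRCm38.p6, which held 31 of the 34 genes (not Mmp9, Trem3 or Cebpe). The sequences below, given 5′ to 3′ on the strand of the gene, show the 3 specific granule genes with the largest differences, the specific granule gene with the smallest (Chil1), Retnlg, which had the highest level per kilobase of the 34, and the azurophil gene Elane. Capitals mark the motif letters, and each run stops before the first annotated exon. For Mmp8, Retnlg and Chil1, and for Trem1 (not shown), the bases after the RefSeq start were not found in a GENCODE transcript. The position of the window in these genes thus rests on RefSeq alone. Ngp spans chr9:110419558-110419746, plus strand. Mmp8 spans chr9:7558179-7558428, plus strand. Ltf spans chr9:111019042-111019270, plus strand. Retnlg spans chr16:48872358-48872607, plus strand. Chil1 spans chr1:134181906-134182155, plus strand, and Elane spans chr10:79886062-79886246, plus strand.
Ngp: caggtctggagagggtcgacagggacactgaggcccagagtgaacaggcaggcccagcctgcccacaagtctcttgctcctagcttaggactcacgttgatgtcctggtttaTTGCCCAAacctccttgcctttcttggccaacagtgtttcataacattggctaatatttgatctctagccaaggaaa
Mmp8: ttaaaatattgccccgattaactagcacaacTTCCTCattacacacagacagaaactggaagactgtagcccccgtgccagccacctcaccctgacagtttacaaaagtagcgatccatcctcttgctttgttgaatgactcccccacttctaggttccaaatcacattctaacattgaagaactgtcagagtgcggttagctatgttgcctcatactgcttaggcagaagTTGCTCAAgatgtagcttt
Ltf: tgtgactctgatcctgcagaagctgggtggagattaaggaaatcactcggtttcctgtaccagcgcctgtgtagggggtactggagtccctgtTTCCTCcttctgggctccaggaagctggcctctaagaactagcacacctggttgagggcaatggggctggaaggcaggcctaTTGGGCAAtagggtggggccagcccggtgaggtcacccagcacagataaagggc
Retnlg: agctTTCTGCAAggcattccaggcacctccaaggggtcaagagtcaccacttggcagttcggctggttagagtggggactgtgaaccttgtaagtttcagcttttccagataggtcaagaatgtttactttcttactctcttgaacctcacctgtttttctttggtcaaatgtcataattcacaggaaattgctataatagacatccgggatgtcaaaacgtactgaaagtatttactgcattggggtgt
Chil1: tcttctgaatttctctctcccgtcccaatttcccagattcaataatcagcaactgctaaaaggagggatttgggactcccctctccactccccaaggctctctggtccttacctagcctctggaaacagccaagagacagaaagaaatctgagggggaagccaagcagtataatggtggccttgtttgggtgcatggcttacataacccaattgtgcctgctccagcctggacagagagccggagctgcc
Elane: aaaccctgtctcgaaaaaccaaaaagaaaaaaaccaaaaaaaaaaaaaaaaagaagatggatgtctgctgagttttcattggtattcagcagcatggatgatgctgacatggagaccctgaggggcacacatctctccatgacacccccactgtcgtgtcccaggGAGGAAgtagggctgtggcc

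Over the full 250 bases upstream, the C/EBP letters were present in 7 of the 31 promoters (22.6%) and in 9.57% of 32536 promoters of the same length in the table. The 7 were Ngp, Mmp8, Ltf, Lcn2, Retnlg, Adam8 and Ly6g, so 4 of the 7 specific granule genes had a match and none of the 4 azurophil genes did. Ngp had 2 matches, beginning at -138 and -11 from the start, and the second lies past the first annotated exon base, so it is not printed. The same holds for the C/EBP and PU.1 matches of Lcn2 and the PU.1 matches of Mmp25 and Csf3r, which leaves 3 specific granule genes with a C/EBP match before any annotated exon. The PU.1 letters were present in 18 of the 31 (58.1%) and in 23.4% of all promoters, and all 4 azurophil genes had a match. Chil1 had neither in this window. The motifs did not overlap in any of the 31 promoters. A match of letters does not show that a factor binds there.

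Gelatinase granule genes were both called lower in the cKO-labelled library. Mmp9 (gelatinase B, which degrades collagen IV) had 1362 counts in the cKO-labelled library and 3805 in the WT-labelled library, 3.52-fold lower (interval 3.31 to 3.75). Mmp25, a membrane-anchored metalloproteinase, had 139 (cKO) and 310 (WT) counts and was 2.81-fold lower (interval 2.29 to 3.46). Summed, they had 103 (cKO) and 357 (WT) CPM, 3.45-fold lower (interval 3.25 to 3.67), an interval that overlaps that of the specific granule sum.

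Genes for surface and membrane proteins were lower in the cKO-labelled library in 12 of 14 cases, with none higher. Their sum was 607 CPM in the cKO-labelled library and 2363 CPM in the WT-labelled library, 3.89-fold lower (interval 3.80 to 3.99), and their median log2 ratio was -2.01. Ly6g, the mouse antigen used to identify and deplete neutrophils (chromosome 15 from 75155240 to 75159126), had 135 (cKO) and 476 (WT) counts and was 4.44-fold lower (interval 3.66 to 5.42). Csf3r, the receptor for the growth factor G-CSF, had 122 (cKO) and 374 (WT) CPM and was 3.06-fold lower (interval 2.89 to 3.23). The log2 ratio of Ly6g, at -2.04, thus lay close to the median of the 14 genes.

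The largest differences among surface genes were those of Itgb2l and Cd177. Itgb2l, a relative of the leukocyte integrin beta 2 chain, had 18 counts in the cKO-labelled library and 216 in the WT-labelled library, 15.1-fold lower with a wide interval of 9.34 to 26.0. Cd177, a glycoprotein that binds the endothelial protein PECAM1, had 310 (cKO) and 1941 (WT) counts and was 7.89-fold lower (interval 6.99 to 8.92). Cd300lf, an inhibitory receptor also found on other myeloid cells, had 755 (cKO) and 3390 (WT) counts and was 5.66-fold lower (interval 5.23 to 6.13). These 3 genes lay below the Ly6g ratio, with the interval of Cd300lf overlapping that of Ly6g.

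The formyl peptide receptors, which guide neutrophils towards bacterial peptides, lie side by side on chromosome 17, 3.88 kb apart. Fpr1 had 471 counts in the cKO-labelled library and 1969 in the WT-labelled library, 5.27-fold lower (interval 4.76 to 5.84). Fpr2 had 366 (cKO) and 1099 (WT) counts and was 3.78-fold lower (interval 3.36 to 4.27), and 3.70% of its exon length overlaps Fpr3 on the same strand. The intervals of this pair did not overlap. Trem1, an activating receptor that amplifies inflammatory signals, had 852 (cKO) and 2698 (WT) counts and was 3.99-fold lower (interval 3.69 to 4.31). Its neighbour Trem3, 0.853 kb away, had 98 (cKO) and 167 (WT) counts, 2.15-fold lower on the plain ratio (interval 1.66 to 2.78) and just short of the threshold with the pseudocount.

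Of the other surface genes, Ifitm6, an interferon-induced membrane protein family member, had 42.2 CPM in the cKO-labelled library and 207 CPM in the WT-labelled library, 4.91-fold lower. Gpr84, a receptor for medium-chain fatty acids, had 39 (cKO) and 172 (WT) counts and was 5.56-fold lower (interval 3.91 to 8.08). Adam8, a membrane metalloproteinase that macrophages also express, had 2687 (cKO) and 7024 (WT) counts and was 3.29-fold lower. Mcemp1, a membrane protein of mast cells and myeloid cells, had 404 (cKO) and 946 (WT) counts and was 2.95-fold lower. Siglece, an inhibitory receptor for sialic acid shared with macrophages, had 281 (cKO) and 425 (WT) counts and was the least different, 1.91-fold lower (interval 1.63 to 2.22), and was not called.

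**Figure D3:**
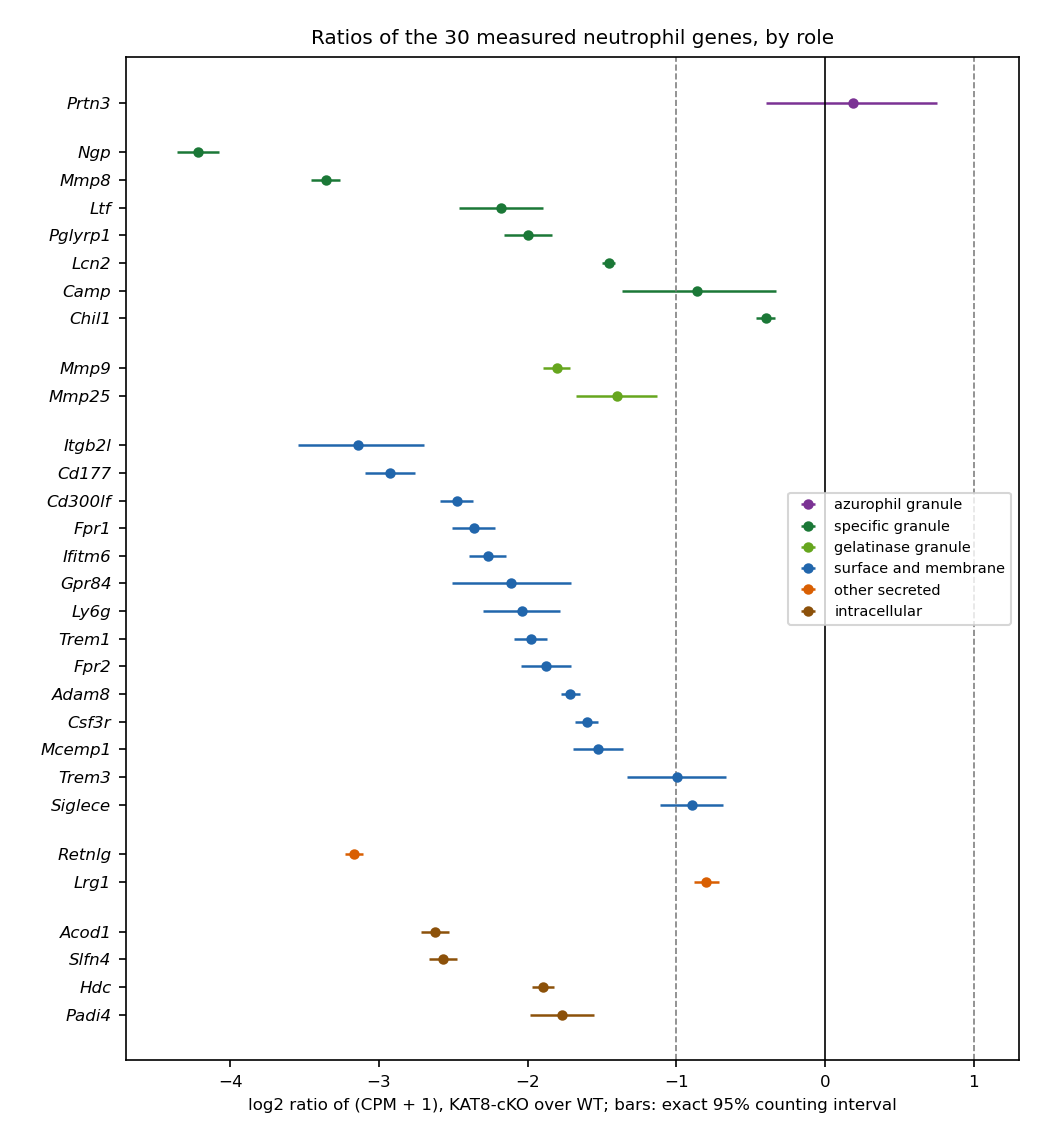
The log2 ratio of (CPM + 1), cKO-labelled over WT-labelled, of the 30 genes at 1 CPM or more, ordered within each role, with exact 95% counting intervals. Dashed lines mark a 2-fold difference. All genes but Prtn3 lie left of 0, and Ngp lies lowest at -4.21.

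Among the remaining secreted proteins, Retnlg (resistin-like gamma) was the most abundant of all 34 genes in both libraries per kilobase of exon. It had 2528 counts in the cKO-labelled library and 18128 in the WT-labelled library, or 294 (cKO) and 2654 (WT) CPM per kb. It was 9.03-fold lower (interval 8.66 to 9.42) and alone made up 8.20% of the counts of the 34 genes in the cKO-labelled library (exact interval 7.90 to 8.51%) and 17.8% in the WT-labelled library (17.6 to 18.1%). Lrg1, a glycoprotein made by neutrophils, endothelium and liver, had 2021 (cKO) and 2799 (WT) counts and was 1.74-fold lower (interval 1.65 to 1.85), and was not called. Without Retnlg, the sum over the other 33 genes had a cKO over WT ratio of 0.269, against 0.241 with it.

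Genes for intracellular proteins were lower in the cKO-labelled library in all 4 cases that reached 1 CPM, with a summed level of 307 CPM in the cKO-labelled library and 1499 CPM in the WT-labelled library. Acod1, which makes itaconate and is also induced in macrophages, had 1078 (cKO) and 5332 (WT) counts and was 6.23-fold lower (interval 5.83 to 6.66). Slfn4, a myeloid Schlafen family gene, had 1088 (cKO) and 5188 (WT) counts and was 6.01-fold lower (interval 5.63 to 6.42). Their intervals overlap. Hdc, the histamine-forming enzyme of mast cells, basophils and neutrophils, had 2062 (cKO) and 6127 (WT) counts and was 3.74-fold lower (interval 3.56 to 3.94). Padi4, which citrullinates histones during the release of neutrophil extracellular traps, had 216 (cKO) and 612 (WT) counts and was 3.57-fold lower (interval 3.05 to 4.19).

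The order of the genes by level per kilobase differed between the libraries. In the cKO-labelled library Retnlg was followed by Lcn2 (158 CPM per kb), Lrg1 (98.9), Chil1 (89.9) and Ifitm6 (46.6). In the WT-labelled library it was followed by Ngp (438), Lcn2 (433), Mmp8 (261) and Ifitm6 (229). Ngp ranked 12th of 34 in the cKO-labelled library and 2nd in the WT-labelled library, while Chil1 ranked 4th (cKO) and 10th (WT) and Lrg1 3rd (cKO) and 7th (WT). In both libraries the lowest 4 places were held by Cebpe, Elane, Mpo and Ctsg.

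**Figure D4:**
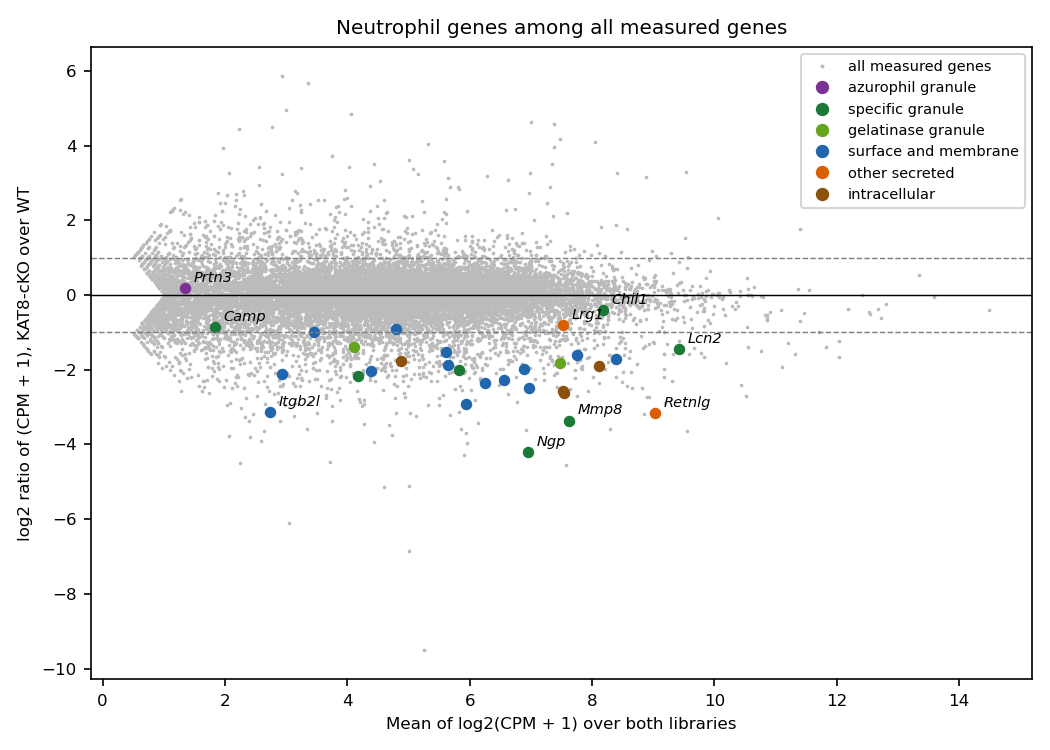
The log2 ratio of (CPM + 1), cKO-labelled over WT-labelled, against the mean log2 level, for all 15240 genes at 1 CPM or more (grey) and the 30 neutrophil genes (coloured by role). Dashed lines mark a 2-fold difference. The neutrophil genes lie below the line of -1 in 24 cases. Those not below it are Prtn3, Camp and Trem3 at low mean levels, and Siglece, Lrg1 and Chil1 at higher ones.

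The wider set of neutrophil genes that are not among the 34 was lower as well. Of 27 such genes 23 were called lower and none higher, where 8.63% of all measured genes were lower and 4.56% higher. Their median log2 ratio was -1.56. Not all of the 27 are confined to neutrophils. Their summed level was 7757 CPM in the cKO-labelled library and 19368 CPM in the WT-labelled library. The largest parts of this sum were S100a8, at 2230 (cKO) and 5844 (WT) CPM, and S100a9, at 2372 (cKO) and 4739 (WT) CPM. The alarmin gene S100a8, which keratinocytes also express in inflamed skin, was 2.62-fold lower, and its partner S100a9 was 1.998-fold lower, at a log2 ratio of -0.998, just short of the threshold. The acute phase gene Hp was 2.67-fold lower (7177 counts in cKO and 15192 in WT) and the stefin gene BC100530 2.95-fold lower (7423 counts in cKO and 17369 in WT). The largest differences were those of Stfa2l1 (8.17-fold), Stfa2 (6.36-fold), Wfdc21 (5.92-fold) and the lectin receptor gene Clec4d (5.42-fold). Reads of the near-identical stefin genes may be split between them. Cybb, the NADPH oxidase subunit that macrophages share, had 582 (cKO) and 451 (WT) counts and a ratio of 1.02 (interval 0.904 to 1.16), and was chosen for mention after its value was seen.

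Factors that direct granulocyte development and recruitment were split. The list had 14 measured genes, 3 of them lower and 1 higher, and its median log2 ratio was -0.08. The neutrophil chemoattractant genes Cxcl2 and Cxcl3 were 7.44-fold and 5.96-fold lower in the cKO-labelled library, and Cxcr4, the receptor that holds neutrophils in marrow, was 4.33-fold lower (155 counts in cKO and 533 in WT). Il17f, an IL-17 family cytokine gene, was 6.07-fold higher (interval 3.80 to 10.2), with 153 (cKO) and 20 (WT) counts. The myeloid transcription factor genes Cebpb and Cebpa, expressed by keratinocytes as well, had log2 ratios of -0.63 and -0.07. Chosen after their values were seen, Csf3, which encodes G-CSF, had 277 (cKO) and 442 (WT) counts (log2 ratio -0.97), and the chemokine genes Cxcl1 and Cxcl5 had log2 ratios of 0.38 and 0.51. Gfi1, a repressor needed for granulocyte formation, had 7 (cKO) and 0 (WT) counts.

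Among the lists for other leukocytes the median log2 ratios ranged below and above 0. Of 10 pan-leukocyte genes 6 were lower and none higher (median -1.10), at 1328 CPM in the cKO-labelled library and 2694 CPM in the WT-labelled library, and neutrophils express these genes too. Ptprc, which encodes the leukocyte antigen CD45, had 1389 (cKO) and 2000 (WT) counts (1.81-fold lower, interval 1.69 to 1.94), and was chosen because it serves as the alternative denominator. For each pan-leukocyte count there were 1.60 counts of the 34 genes in the cKO-labelled library and 3.28 in the WT-labelled library, 2.05-fold lower. With this denominator in place of the library total, a use chosen after seeing the data, 13 of the 30 genes were called lower and the median log2 ratio was -0.92. The share of all genes past 2-fold was not computed under this scaling, so the count of 13 has no background beside it. Itgb2 stands in both the pan-leukocyte list and the wider neutrophil list.

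Of 14 monocyte and macrophage genes 5 were lower and none higher, with a median of -0.60, summed levels of 867 (cKO) and 1292 (WT) CPM and no marker at 0. The scavenger receptor gene Cd163 had 450 (cKO) and 1320 (WT) counts (log2 ratio -1.85). Dendritic cell and T cell genes had medians of 1.19 and 1.04, with 4 of 7 higher in each and none lower. Their summed levels were 209 (cKO) and 82.4 (WT) CPM for dendritic cells, and 243 (cKO) and 98.6 (WT) CPM for T cells. H2-Ab1 made up most of the dendritic sum, at 166 (cKO) and 56.9 (WT) CPM. Thy1 made up most of the T cell sum, at 215 (cKO) and 86.7 (WT) CPM. Log2 ratios lay below 0 for 2 of the 7 dendritic and 1 of the 7 T cell genes. Cd3e had only 33 (cKO) and 15 (WT) counts. The sums do not measure the number of these cells. The dendritic cell gene Xcr1 was at 0 counts in the WT-labelled library. Mast cell genes, which bear on Hdc and Mcemp1, had 1 of 8 higher, none lower a median of -0.05, summed levels of 201 (cKO) and 161 (WT) CPM and no marker at 0. Mcpt4 had 1161 (cKO) and 405 (WT) counts, Cma1 678 (cKO) and 461 (WT), Cpa3 384 (cKO) and 220 (WT), and Tpsb2 341 (cKO) and 425 (WT). The log2 ratios of the 8 genes ran from -0.90 to 1.16, with 4 of them below 0. Basophil and eosinophil markers were scarce, at 127 (cKO) and 52 (WT) counts and at 12 (cKO) and 24 (WT) counts in all. Of the eosinophil genes Epx was at 0 counts in both libraries, Prg2 in the cKO-labelled library and Il5ra in the WT-labelled library. The part of these cell types in the neutrophil result was not tested.

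Red cell, fat and muscle markers were mostly lower in the same cKO-labelled library, and platelet markers were split. All 6 measured red cell genes were lower (median -3.47), with summed levels of 9.03 CPM in the cKO-labelled library and 173 CPM in the WT-labelled library, and Slc4a1 was at 0 counts in the cKO-labelled library. The haemoglobin gene Hbb-bs had 66 (cKO) and 959 (WT) counts. Platelet genes had 1 of 4 lower and a median of -0.39, at 58.4 (cKO) and 109 (WT) CPM in all, with Gp9 at 0 counts in the cKO-labelled library. Adipocyte genes had 4 of 6 lower (median -3.14, 207 CPM in cKO and 1641 CPM in WT) and skeletal muscle genes 6 of 6 lower (median -2.72, 1374 CPM in cKO and 10011 CPM in WT), with no marker at 0. The part of blood, fat and muscle content in the neutrophil values was not tested. Keratinocyte genes had 4 of 8 lower (median -0.65) and summed to 32349 CPM in the cKO-labelled library and 38486 CPM in the WT-labelled library.

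**Figure D5:**
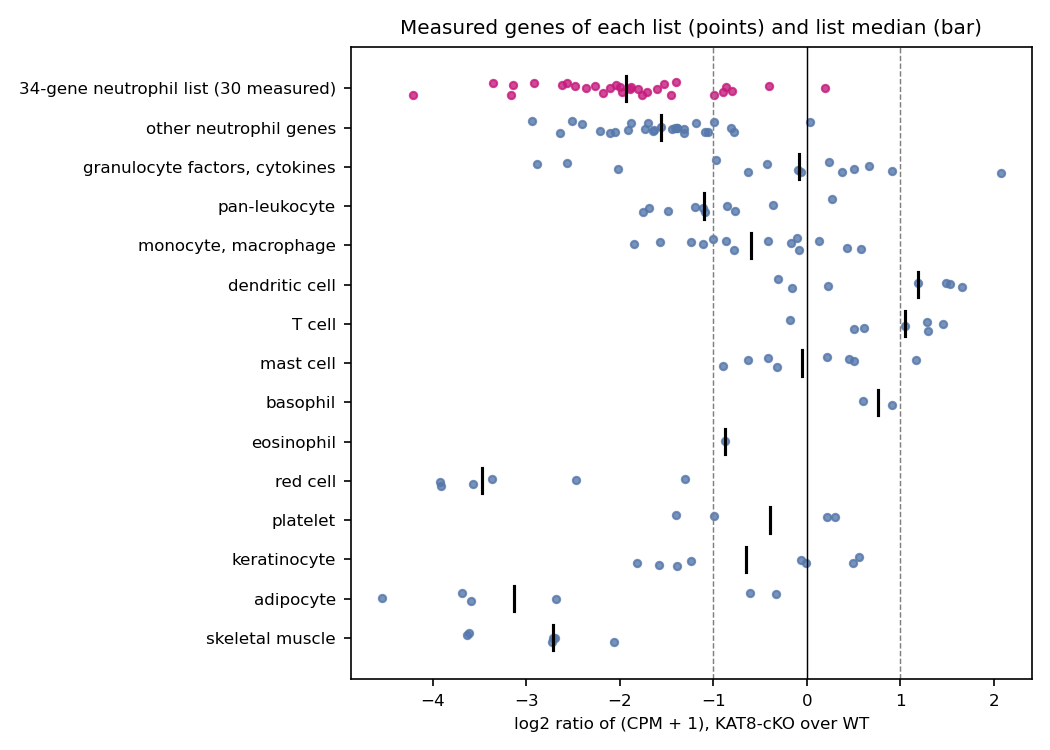
The log2 ratio of (CPM + 1), cKO-labelled over WT-labelled, of each measured gene (points) in the 34-gene neutrophil list and in 14 other lists, with the list median (bar). Dashed lines mark a 2-fold difference. The neutrophil median of -1.94 lies above those of the red cell, adipocyte and muscle lists (-3.47, -3.14 and -2.72) and below those of the other leukocyte lists.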

How the data were processed

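RNA was measured in ear skin, 1 library per label. The authors deposited 1 table of read counts by Ensembl gene identifier, in whole numbers and not normalized. The build mm10 and the tools HISAT2, StringTie 1.3.0 and edgeR stand in the submitters' processing notes, with no role given. The counter, annotation release and strand setting are not given in the sources used, so reads shared by overlapping or near-identical genes cannot be told apart.

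Identifiers were paired with symbols, exon lengths (union of exons) and coordinates from GENCODE M21 (GRCm38, the assembly mm10 names), which named 34267 of 34745 genes. All 34 genes were found. Counts were scaled with TMM factors from edgeR 4.0.16 in R 4.3.3 (1.06 for the cKO-labelled library, 0.946 for the WT-labelled library). DESeq2 1.42.0 gave alternative size factors. Neither was used for testing, since there is 1 library per label. A gene was measured at 1 CPM or more in either library. Log2 ratios use a pseudocount of 1 CPM, which understates differences of low genes. Each fold is the CPM of one library over that of the other, without pseudocount, and its exact 95% interval (Clopper-Pearson) was computed with scipy 1.17.1. Intervals, and the limit of 3 counts for a gene at 0, cover counting error only and treat each read as independent. Reads lacking molecular identifiers can be copies of 1 molecule, so these intervals may be too narrow even for counting error. The calculations were tested on simulated Poisson counts with 200 changed genes.

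The 34 genes, the role groups and the 14 other lists were chosen with earlier results of these data known. All 34 are named. Of each other list, the rule named the 4 genes with the highest mean level and up to 4 with the largest differences past 2-fold at 5 CPM or more. Of these, those that bear on the neutrophil values are given, and further genes are marked in the text. Some listed genes are not reported here. Alternatives were other scalings, filters, pseudocounts, folds and subsets of the genes.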

Additional observations from a re-analysis of the deposited data

How the results depend on the processing

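No paired analysis was possible because each label has 1 library, and for the same reason no library could be left out. The count of genes called lower was 24 under plain CPM, DESeq2 size factors, totals without the 50 most abundant genes, no filter, a filter of 5 CPM, the main setting and a pseudocount of 5 CPM, 25 with upper quartile factors and 26 with a pseudocount of 0.1 CPM. It was 22 of 27 without genes whose exons overlap another gene, and 28 at a fold of 1.5, where 17.2% of all genes were lower. At a fold of 4 it was 13, and scaled to pan-leukocyte genes 13. No share of all genes past the fold was computed for any scaling but the main one, for the other pseudocounts or for no filter. Plain CPM moved the median of all measured genes to 0.16, and leaving out the 50 most abundant genes moved it to 0.11. Under plain CPM the medians of other secreted and intracellular genes were -1.82 and -2.07, and the ratios of sums, cKO-labelled over WT-labelled, were 0.269 for all genes, 0.317 for specific, 0.324 for gelatinase, 0.287 for surface, 0.193 for other secreted and 0.229 for intracellular genes. Without the 50 most abundant genes these medians were -1.88 and -2.13, and the ratios 0.259, 0.305, 0.312, 0.277, 0.186 and 0.220. With a pseudocount of 5 CPM the medians of all, specific and surface genes were -1.75, -1.76 and -1.71, and with no filter the intracellular median was -1.90. Without Retnlg the ratio of sums was 0.269 for all genes and 0.573 for other secreted genes, which leaves Lrg1 alone. Without 11 of the genes that other cells also express (Lcn2, Chil1, Mmp9, Adam8, Gpr84, Siglece, Cd300lf, Lrg1, Hdc, Acod1 and Slfn4), the specific granule median was -2.18. In each of 3 groups 1 gene was left, Mmp25 (gelatinase, -1.40), Retnlg (other secreted, -3.17) and Padi4 (intracellular, -1.77). The genes kept, Mcemp1 among them, are not all confined to neutrophils. Scaled to pan-leukocyte genes the medians were -0.92 (all), 0.81 (azurophil), -0.9962 (specific), -0.62 (gelatinase), -1.02 (surface), -0.97 (other secreted) and -1.22 (intracellular). The azurophil value is that of Prtn3 alone, at 25 (cKO) and 16 (WT) counts, and does not describe the group. Per count of Ptprc alone, the ratios were 0.436 (all), 0.514 (specific), 0.525 (gelatinase) and 0.466 (surface), against 0.488, 0.575, 0.587 and 0.521 per pan-leukocyte count. The cause of each move was not tested. No called gene changed its direction under any scaling or pseudocount run for single genes. Depth limits the azurophil genes, Cebpe, Camp and Itgb2l.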

Other observations

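Several genes that lie beside the neutrophil genes also differed between the libraries. The nearest measured protein-coding genes on either side came to 62 distinct genes. No limit of distance was set, and Ppp2r1a lay 3075 kb from Fpr1. Of the 62 genes, 11 (17.7%) were at least 2-fold lower and 4 higher in the cKO-labelled library. Of all measured genes, protein-coding or not, 8.63% were lower and 4.56% higher. The median log2 ratio of the 62 genes was -0.22. These neighbours were chosen by position after the values of the neutrophil genes were known. Cfd, an adipocyte gene 4.52 kb from the almost silent Elane (midpoint to midpoint), had 558 counts in the cKO-labelled library and 10638 in the WT-labelled library. Retn, which encodes the adipokine resistin and lies 9.57 kb from Mcemp1, had 91 (cKO) and 1116 (WT) counts. Mybph, a muscle gene 11.2 kb from Chil1, had 88 (cKO) and 599 (WT) counts beside the 3659 (cKO) and 3838 (WT) counts of Chil1.

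Some neighbours are themselves myeloid genes. Ccrl2, a chemerin-binding receptor beside Ltf, had 87 counts in the cKO-labelled library and 541 in the WT-labelled library. Slfn1, beside Slfn4, had 258 (cKO) and 611 (WT) counts, and Ly6c2, beside Ly6g, 246 (cKO) and 605 (WT). Cd300e, beside Cd300lf, went the other way, with 216 counts in the cKO-labelled library and 45 in the WT-labelled library, a log2 ratio of 1.69 against -2.48 for Cd300lf.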
